A study of Mus musculus with 12 samples.

Results

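Heart tissue of mice given NECA after an infarct was compared with that of mice with an infarct alone, gene by gene, in libraries of like depth. NECA, 5′-(N-ethylcarboxamido)adenosine, resembles adenosine but resists breakdown, and activates the receptors for it. The series holds 12 libraries of RNA 3′ ends from 10 wild-type mice, and this comparison used 7 of the 12. The NECA-treated group was 4 mice with NECA delivered locally into the infarcted heart muscle (NECA mice 1 to 4). The infarct group was 3 mice with ligation of the left coronary artery, which causes myocardial infarction (MI mice 1 to 3). MI mice 2 and 3 were sequenced a first time to far greater depth, and for each of them only the second, shallow library entered the comparison. A further group of 3 sham vehicle mice with no infarct is given beside the results as background. The labels give myocardial tissue as the source of every library and give no age, strain, dose or time after ligation. They name no vehicle and no injection for the MI mice, so an effect of NECA and one of its injection cannot be told apart.

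Adenosine is released from stressed and dying cells, where enzymes on the cell surface cut it from ATP, ADP and AMP. Its receptors are coupled to G proteins. The Adora2a and Adora2b receptors raise cyclic AMP (cAMP), which activates protein kinase A and the transcription factor CREB, while Adora1 and Adora3 lower it. In the heart, adenosine slows conduction, widens coronary vessels and restrains inflammatory cells, and NECA acts on all of these receptors.

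The 7 libraries held 0.9598 to 1.26 M counts (M stands for 1e+06), with 14301 to 15126 genes detected in each. Levels are in CPM, counts per 1e+06 counts of a library, scaled between the shallow libraries by TMM, edgeR's trimmed mean of ratios. Levels of the deep libraries were scaled in a separate TMM run over all 12 libraries. Small differences between deep and shallow levels are therefore uncertain. Before TMM scaling, a single count was worth 0.795 to 1.04 CPM. A count of 0 then allowed up to 3.13 CPM in the shallowest library, which covers counting error only. The cardiomyocyte markers Myh6, Myl2, Tnnt2, Tnni3 and Actc1 were present in all 7 libraries, with Tnni3, cardiac troponin I, at 2525 to 3559 CPM. In bulk tissue, fewer cells of a type and less RNA per cell cannot be told apart.

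A few libraries stood apart. The library of MI mouse 3 had a mean correlation across genes of 0.890 with the other MI libraries. Those of MI mice 1 and 2 had 0.917 and 0.909, and those of the NECA-treated mice 0.944 to 0.950 within their group. The library of MI mouse 3 held 1763.5 CPM of Col1a1, a chain of fibrillar collagen, against 126 to 892 in the other 6 mice. Its level of Myh7, the slow myosin that rises in a strained ventricle, was 2595 CPM against 129 to 395. Nppa, the gene of atrial natriuretic peptide, stood at 3381 CPM there and at 67.0 to 288 in the other 6 mice. The deep first library of the same mouse held 3631 CPM of Nppa. NECA mouse 4 carried markers of fast skeletal muscle, whose 10 genes summed to 509 CPM there, to 90.1 CPM in MI mouse 2 and to 0.879 to 6.83 CPM in the other 5. The summed haemoglobin and other red cell markers reached 2769 CPM in MI mouse 2 against 723 to 1068 CPM in the other 6. Fat cell markers summed to 65.0 to 362 CPM in 5 of the mice, and to 0 in NECA mouse 3 and 0.919 CPM in MI mouse 3. Of the sham vehicle mice, mouse 3 stood apart, with 3659 CPM of Nppa, 1224 CPM of summed fat cell markers and 3361 CPM of red cell markers, and it is part of the mean to which list scores are set. Medians of the lists are therefore given with and without MI mouse 3, and the part of the other markers in the results was not tested.

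No gene passed the test between the NECA-treated and the MI mice. By edgeR's quasi-likelihood test over 9104 genes with Benjamini-Hochberg adjustment, 0 genes were higher and 0 were lower (0% of the genes each), and the smallest adjusted p was 0.760. DESeq2 and limma also gave 0 genes in each direction. At an unadjusted p under 0.05, edgeR gave 268 genes higher with NECA, 2.94% of those tested, and 313 lower, 3.44%, while DESeq2 gave 227 and limma 477 in both directions together. In 360 genes (3.95%) all 4 NECA-treated mice lay above all 3 MI mice, and in 332 (3.65%) all lay below. The fold changes were spread evenly around 0, with 48.3% of genes higher and a median log2 fold change of -0.01. Without MI mouse 3 there were 246 of 9368 genes higher (2.63%) and 232 lower (2.48%) at an unadjusted p under 0.05. On counts simulated from these libraries, the same test recovered 51% of 200 genes changed 2-fold and 91% of those changed 4-fold. Whether it recovers such shares in the real counts, in which MI mouse 3 stood apart, was not tested. In the real counts Gas5, with a log2 fold change of -0.997, had an adjusted p of 0.760 by edgeR. Every gene named from here on is therefore a description of these 7 mice, since none passed the threshold.

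**Figure D1:**
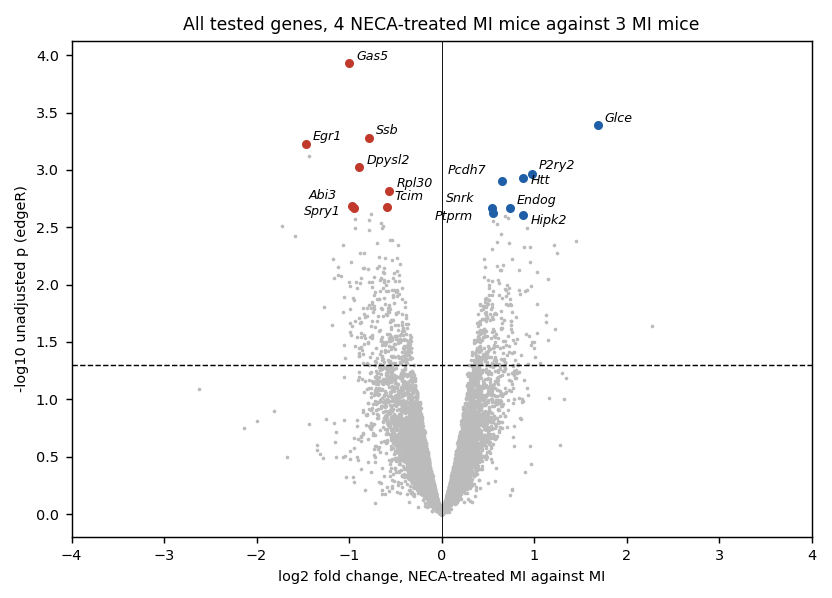
Each point is 1 of the 9104 tested genes, with the log2 fold change of NECA-treated MI (4 mice) against MI (3 mice) on the x axis and the -log10 of edgeR's unadjusted p on the y axis. Coloured points are the leading genes of each direction, and the dashed line marks 0.05. The cloud is near symmetric, with 268 genes above the line on the right and 313 on the left, and no gene passed after adjustment.

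The leading genes named next were picked by small p or large fold change among genes with no overlap between the groups. Their lack of overlap was thus set by the rule and is no separate result. Of the genes lower with NECA, Gas5 had the smallest p. Gas5 is a non-coding host gene of small nucleolar RNAs, whose spliced transcript is known as a decoy of the glucocorticoid receptor and as a transcript kept low by translation in growing cells. Its level was 33.1, 33.1, 27.3 and 32.0 CPM in the NECA-treated mice against 51.0, 50.5 and 85.5 CPM in the MI mice. The groups did not overlap, and the NECA-treated mice lay within the range of the sham vehicle mice, at 23.3, 29.1 and 38.0 CPM. The log2 fold change was -0.997 ± 0.21 (SE), with an adjusted p of 0.760 by edgeR, and -0.69 without MI mouse 3. The deep first libraries of the same MI mice 2 and 3, which add no mice, gave 57.9 and 72.3 CPM, also above every NECA-treated mouse.

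Egr1, an immediate early zinc finger factor induced by growth factors, stretch and cAMP, stood at 11.8, 4.62, 5.98 and 8.74 CPM with NECA and at 17.6, 15.4 and 31.3 CPM in the MI mice. It was thus lower in each NECA-treated mouse than in each MI mouse, and the sham vehicle mice spanned 11.3 to 27.3 CPM. Its log2 fold change was -1.47 ± 0.36 (SE), and -1.08 without MI mouse 3. The deep libraries of the same MI mice 2 and 3, which add no mice, held 17.4 and 29.3 CPM, above the NECA-treated mice. Spry1, an inhibitor of receptor tyrosine kinase signalling that is itself induced by that signalling, was at 11.8, 17.0, 11.1 and 14.6 CPM against 20.2, 26.4 and 32.2 CPM, a log2 fold change of -0.94 ± 0.27 (SE).

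Ssb encodes La, which binds the ends of new RNA polymerase III transcripts and the messages of ribosomal proteins. Its levels were 26.8, 33.9, 33.3 and 26.2 CPM with NECA and 47.4, 48.3 and 59.8 CPM in the MI mice, a log2 fold change of -0.79 ± 0.19 (SE). Rpl30, a protein of the large ribosomal subunit, stood at 125, 116, 108 and 109 CPM against 149, 151 and 207 CPM. The sham vehicle mice had 132, 123 and 132 CPM of Rpl30, so MI mouse 3 was the highest of the 10 mice in the shallow libraries. The log2 fold change of -0.57 ± 0.15 (SE) was -0.39 without that mouse and -0.64 with both libraries of a mouse summed. The deep libraries of MI mice 2 and 3 held 194 and 191 CPM of Rpl30.

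The other genes lower with NECA under the same rule were Dpysl2, Abi3, Tcim, Nrarp, Tcf7l2 and Zfp326. Dpysl2, a regulator of microtubules, ranged from 15.4 to 19.3 CPM with NECA and from 27.2 to 37.7 CPM in the MI mice. Abi3, an actin regulator of myeloid cells, ranged from 9.46 to 12.8 CPM against 17.6 to 24.8 CPM. Tcim ranged from 37.0 to 50.4 CPM against 60.6 to 70.8 CPM. In all 3 the groups stayed apart, as the rule required. Nrarp, a target and feedback inhibitor of Notch signalling, stood at 7.09, 7.71, 2.56 and 0 CPM against 16.7, 13.2 and 15.6 CPM, with a log2 fold change of -1.72 ± 0.50 (SE). NECA mouse 4 had no count of Nrarp, and a few counts per library set its other values. Tcf7l2, a transcription factor of Wnt signalling, and Zfp326, an RNA-binding zinc finger protein, had log2 fold changes of -1.17 ± 0.38 and -1.16 ± 0.40 (SE).

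Glce had the smallest p among the genes higher with NECA. It encodes the epimerase that turns glucuronic into iduronic acid in heparan sulphate chains, which hold growth factors at the cell surface. Its level was 11.8, 13.9, 16.2 and 17.5 CPM with NECA against 2.64, 6.59 and 4.597 CPM in the MI mice, and the groups did not overlap. The sham vehicle mice lay between them, at 9.69, 8.09 and 10.8 CPM. The log2 fold change was 1.69 ± 0.40 (SE), with an adjusted p of 0.760 by edgeR, and 1.72 without MI mouse 3. The deep libraries of MI mice 2 and 3, however, held 9.34 and 11.6 CPM of Glce, more than in their shallow libraries, and with both libraries of a mouse summed the log2 fold change was 0.72.

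P2ry2, a receptor for extracellular ATP and UTP, stood at 27.6, 26.97, 36.7 and 25.2 CPM with NECA and at 14.9, 17.6 and 11.95 CPM in the MI mice. The groups were separate, with sham vehicle mice at 24.2, 17.0 and 17.9 CPM. Its log2 fold change was 0.98 ± 0.25 (SE), 0.85 without MI mouse 3 and 0.78 with the libraries summed. Htt, which encodes huntingtin, a scaffold of vesicle transport, was at 29.9, 29.3, 38.4 and 30.1 CPM against 18.5, 17.6 and 15.6 CPM. The NECA-treated mice were close to the sham vehicle mice in Htt, which had 33.9, 32.3 and 33.7 CPM, and the log2 fold change was 0.88 ± 0.23 (SE).

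Pcdh7, a protocadherin, stood at 102, 97.9, 103 and 97.1 CPM with NECA against 65.0, 80.2 and 46.9 CPM, near the 89.7 to 126 CPM of the sham vehicle mice. The log2 fold change was 0.65 ± 0.17 (SE) and 0.48 without MI mouse 3. Snrk, a kinase of the AMPK family, was at 112, 125, 120 and 156 CPM against 86.1, 89.0 and 86.4 CPM, above both the MI and the sham vehicle mice, whose highest was 101 CPM. Ptprm, a receptor tyrosine phosphatase at cell contacts, ranged from 73.8 to 86.3 CPM against 48.7 to 57.1 CPM. These groups were each separate, with log2 fold changes of 0.55 ± 0.15 for Snrk and 0.55 ± 0.16 (SE) for Ptprm.

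Hipk2, a nuclear kinase, ranged from 39.8 to 50.4 CPM with NECA and from 14.7 to 37.8 CPM in the MI mice, a log2 fold change of 0.88 ± 0.25 (SE) that was 0.61 without MI mouse 3. Leaving out MI mouse 1 instead gave a log2 fold change of Hipk2 of 1.37. The deep libraries of MI mice 2 and 3 held 3.46 and 6.70 CPM of Hipk2, far below their shallow ones, and with the libraries summed the value was 2.05. Endog, a mitochondrial nuclease, ranged from 38.5 to 50.4 CPM against 20.9 to 28.1 CPM. Its log2 fold change of 0.73 ± 0.21 (SE) was 0.18 with the libraries summed, where the deep library of MI mouse 2 held 51.1 CPM. Recql5, a DNA helicase, and Det1, an adaptor of a ubiquitin ligase, had log2 fold changes of 1.46 ± 0.45 and 1.24 ± 0.40 (SE), which were 0.60 and 0.65 with the libraries summed. Fam177a, with the largest fold change, stood at 18.9 to 26.2 CPM with NECA and at 13.2, 0 and 0 CPM in the MI mice. The deep libraries of the same MI mice 2 and 3 held 27.6 and 28.4 CPM of it, so its log2 fold change of 2.27 ± 0.79 (SE) was -0.03 with the libraries summed and is uncertain.

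**Figure D2:**
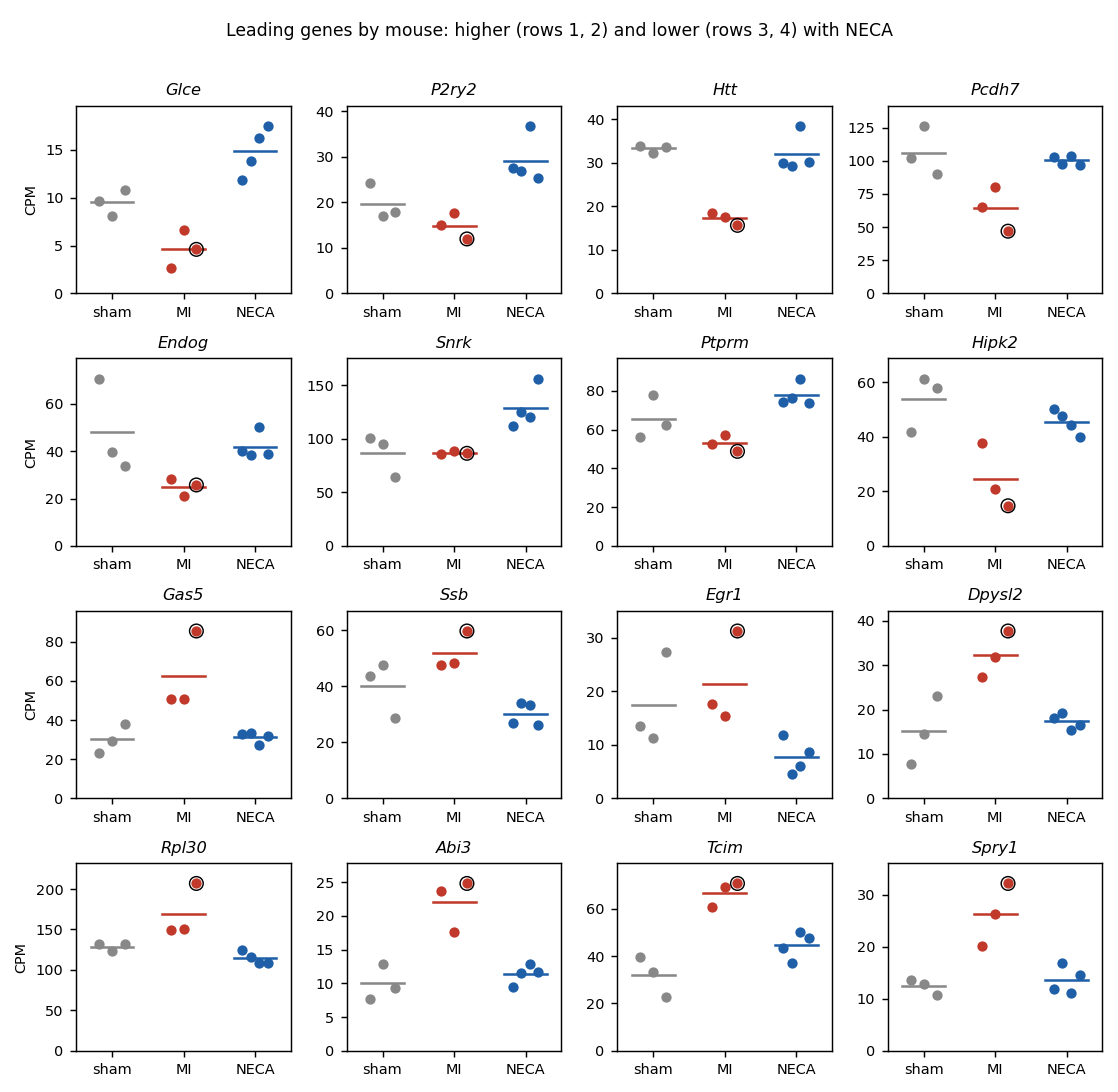
Each panel is 1 gene, with its level in CPM on the y axis from 0, 1 point per mouse and a line at the mean of each group: 3 sham vehicle, 3 MI and 4 NECA-treated MI mice. The ring marks MI mouse 3. The 2 upper rows hold the 8 genes of smallest p higher with NECA and the 2 lower rows the 8 lower, and in each panel the NECA and MI points do not overlap because the genes were chosen so. MI mouse 3 is the highest MI point in all 8 lower panels.

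Promoter sequence was read for the cAMP response element (CRE), the site TGACGTCA that CREB binds, since NECA acts on receptors that move cAMP. The window was the 250 bases before each RefSeq start in GRCm38.p6, and the 8 letters read the same on both strands. The full site was present in 219 of 7165 tested genes with a promoter entry (3.06%). Over all genes with a promoter entry, tested or not, the share was 1.77%. The site was found in 3 of the 18 matched genes of a list of 22 known CREB targets (16.7%). Of the 13 of these that were tested, 2 held it (15.4%). Of the 16 matched leading genes, 2 held it (12.5%), which were Gas5 and Htt. The shorter TGACG, on either strand and contained in the full site, was in 16 of the 18 CREB targets (88.9%). It was in 84.6% of the 13 tested CREB targets and in 31.8% of all tested genes. The 30 bases around the full site are shown for Gas5 and Htt, which moved in opposite directions in value, and for Dusp1 and Btg2, CREB targets with enough counts to test. Capitals mark the site, and each is written 5′ to 3′ on the strand of its gene.
Gas5 (chr1:161035109-161035138, plus strand, GRCm38.p6, site 46 bases before an annotated start): gctttgcgtctTGACGTCAcgaagacctta
Htt (chr5:34761710-34761739, plus strand, GRCm38.p6, site 14 bases before the start): ctcgtctccgccggcaTGACGTCAcgggac
Dusp1 (chr17:26508597-26508626, minus strand, GRCm38.p6, site 143 bases before the start): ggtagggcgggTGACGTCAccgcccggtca
Btg2 (chr1:134079303-134079332, minus strand, GRCm38.p6, site 166 bases before the start): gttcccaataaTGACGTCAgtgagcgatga

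The 4 genes with the same 8 letters did not share a direction. Gas5 was lower and Htt higher with NECA, as given above. Dusp1, a phosphatase that switches off MAP kinases, stood at 43.3, 35.5, 35.03 and 42.7 CPM against 43.1, 59.3 and 51.5 CPM, and the groups overlapped by 1 NECA-treated mouse. Btg2, an antiproliferative factor, was at 24.4, 30.8, 30.8 and 26.2 CPM against 23.7, 26.4 and 34.0 CPM, with a log2 fold change of -0.01 ± 0.22 (SE). A match of letters is a description of the promoter and says nothing of CREB binding in these hearts.

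Of the 4 adenosine receptor genes, only Adora1 had enough counts to be tested. Adora1, the receptor that slows the sinus and atrioventricular nodes, stood at 8.67, 14.6, 9.40 and 8.74 CPM with NECA and at 8.79, 8.79 and 10.1 CPM in the MI mice. The groups overlapped, with a log2 fold change of 0.17 ± 0.36 (SE), while sham vehicle mice had 11.6, 12.9 and 24.4 CPM. Adora2a, the receptor of coronary vessels and leukocytes, had 6.30, 7.71, 10.3 and 6.80 CPM against 7.91, 2.20 and 9.19 CPM, again overlapping. Adora2b was at 0 in 3 of the 4 NECA-treated mice and in MI mice 1 and 3, with 3.08 CPM in NECA mouse 2 and 2.20 CPM in MI mouse 2. Adora3 was at 0 in 5 of the 7 mice and at 0.971 CPM or less in the other two. Differences in Adora2b and Adora3 were not detectable at this depth.

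Among the 21 genes that make, take up or break down adenosine, 15 were tested, of which 5 were higher and 10 lower with NECA, with a median log2 fold change of -0.16, and 0.05 without MI mouse 3. Nt5e, which encodes CD73 and cuts AMP to adenosine outside the cell, stood at 13.4, 13.9, 25.6 and 14.6 CPM against 16.7, 12.1 and 8.28 CPM. Entpd1 (CD39), the step before it, stood at 22.1, 12.3, 16.2 and 15.5 CPM against 21.97, 24.2 and 21.1 CPM. Both overlapped between the groups. Entpd5, a nucleoside diphosphatase of the endoplasmic reticulum, was the 1 member of the 15 with an unadjusted p under 0.05. Over all genes tested, 2.94% were higher and 3.44% lower at that p. Entpd5 had 152, 132, 166 and 173 CPM against 130, 143 and 68.0 CPM, and its log2 fold change of 0.45 ± 0.21 (SE) was 0.19 without MI mouse 3. Adk, the kinase that turns adenosine back to AMP, and the transporter gene Slc29a1 had log2 fold changes of 0.06 ± 0.20 and -0.09 ± 0.17 (SE). Nt5c1a, a cytosolic nucleotidase of heart and muscle, was too low to test in the 7 libraries. It had 8.67, 4.62, 12.8 and 8.74 CPM with NECA against 3.51, 1.10 and 2.76 CPM, with no overlap. A few counts per library set the MI values, so the size of the difference is uncertain. The deep libraries of MI mice 2 and 3 held 0.766 and 0.346 CPM. Its log2 fold change was 1.79 without MI mouse 3 and 3.51 with the libraries summed, where it was tested.

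**Figure D3:**
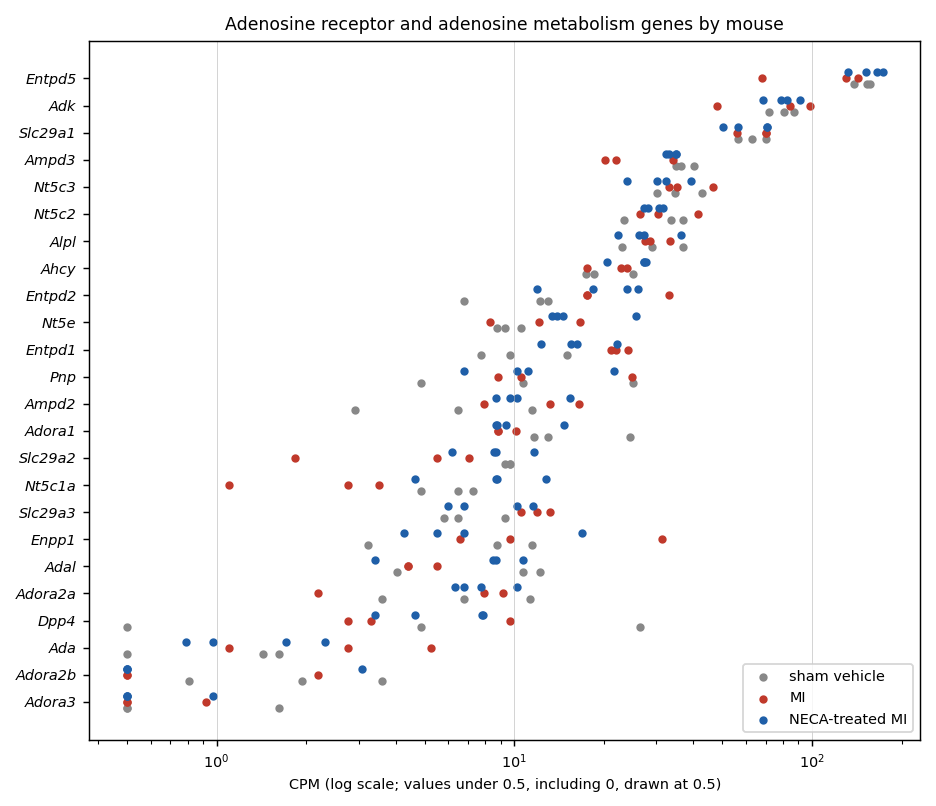
Points are the CPM of single mice (x axis, log scale, with values under 0.5 drawn at 0.5) for the adenosine receptor and metabolism genes with at least 1 count in the 7 libraries, for sham vehicle, MI and NECA-treated MI mice. The NECA and MI points of most genes are interleaved, and Adora2b and Adora3 lie at or near the left edge.

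Downstream of the receptors, the cAMP machinery was divided. Of 42 listed genes for cyclases, phosphodiesterases, kinase subunits and anchors, 35 were tested, with 20 higher, 15 lower and a median log2 fold change of 0.05 (0.00 without MI mouse 3). At an unadjusted p under 0.05, 3 were higher and 1 lower, against 2.94% and 3.44% of all genes. Adcy5, the main cardiomyocyte cyclase, stood at 93.8, 83.2, 73.5 and 61.2 CPM against 44.8, 69.2 and 42.3 CPM, overlapping by 1 MI mouse, with a log2 fold change of 0.59 ± 0.20 (SE). Akap6, which anchors protein kinase A at the nuclear envelope, had 153, 122, 146 and 148 CPM against 127, 101 and 60.7 CPM, which also overlapped. Adcy4, a cyclase of endothelium, was at 26.0, 21.6, 28.2 and 19.4 CPM against 29.9, 35.2 and 41.4 CPM. It was the 1 member of the 35 below the MI mice without overlap, against 3.65% of all genes. Its log2 fold change of -0.57 ± 0.22 (SE) was -0.15 with the libraries summed, where the deep library of MI mouse 2 held 17.6 CPM, below every NECA-treated mouse.

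CREB target genes were not higher as a list. Of 22, 16 were tested, with 6 higher, 10 lower and a median of -0.09, and -0.12 without MI mouse 3. Egr1 and Dusp1 had an unadjusted p under 0.05, both lower, against 3.44% of all genes. Sik1, a kinase induced by cAMP, was at 22.1, 17.7, 17.1 and 13.6 CPM against 23.7, 23.1 and 24.8 CPM, below each MI mouse, but its deep libraries held 18.3 and 22.9 CPM and its value of -0.43 ± 0.25 (SE) was -0.27 with the libraries summed. Tob1 and Klf4 lay above the MI mice without overlap, with log2 fold changes of 0.32 ± 0.22 and 0.17 ± 0.20 (SE). Fos, Fosb, Nr4a2, Nr4a3, Crem and Areg were too low to test.

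Of the 31 immediate early genes, 20 were tested. In value 15 of these were lower with NECA, with a median of -0.23, but without MI mouse 3 the median was 0.12 and 8 were lower. The list score of a mouse, the mean log2 CPM of the tested members relative to the sham vehicle mean, was 0.67 in MI mouse 3 and 0.12 and 0.19 in MI mice 1 and 2. NECA-treated mice scored 0.24, 0.20, -0.07 and 0.09, so only MI mouse 3 lay outside their range. Genes induced by glucocorticoids and clock genes had medians of 0.02 and 0.06 (-0.01 and 0.03 without MI mouse 3). With all 7 mice, no member of the 14 and 15 tested had an unadjusted p under 0.05. Over all genes 2.94% were higher and 3.44% lower at that p.

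Calcium handling and ion channel genes were mostly higher in value with NECA. Of 36 listed, 34 were tested, 27 were higher and 7 lower, and 7 had an unadjusted p under 0.05, all higher, against 2.94% of all genes. Among them were Ryr2, Slc8a1, Jph2 and Kcnj5. The median log2 fold change was 0.19, and 0.04 without MI mouse 3, where 18 were higher and 16 lower and 4 had an unadjusted p under 0.05, all higher, against 2.63% of all genes.

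Ryr2, the calcium release channel of the sarcoplasmic reticulum, had 876, 840, 1171 and 1151 CPM against 755, 777 and 414 CPM. Every NECA-treated mouse was above every MI mouse in Ryr2, and the log2 fold change was 0.63 ± 0.21 (SE), and 0.40 without MI mouse 3. Atp2a2, the calcium pump SERCA2, and Cacna1c, the L-type calcium channel, overlapped between the groups, at 0.45 ± 0.33 and 0.07 ± 0.16 (SE).

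Transcription factors of the cardiac programme were higher in value for 20 of 23, all of which were tested. The median was 0.32, and 0.12 without MI mouse 3, where 15 were higher. With an unadjusted p under 0.05 there were 4 higher and 1 lower, against 2.94% and 3.44% of all genes. Nkx2-5, the homeobox factor of the myocardium, stood at 40.2, 41.6, 32.5 and 48.5 CPM against 27.2, 29.7 and 22.99 CPM, a log2 fold change of 0.61 ± 0.21 (SE) and of 0.52 without MI mouse 3. Its deep libraries differed, with 45.8 and 32.8 CPM in MI mice 2 and 3, and with the libraries summed the value was 0.18. Gata4 had 115, 88.6, 107 and 88.3 CPM against 85.2, 80.2 and 62.5 CPM. Tbx20, by contrast, was below each MI mouse, at 64.6, 54.7, 57.2 and 72.8 CPM against 77.3, 81.3 and 80.0 CPM, and its value of -0.36 ± 0.16 (SE) was -0.35 without MI mouse 3. With the libraries summed it was -0.17, and the deep libraries of MI mice 2 and 3 held 72.6 and 61.7 CPM, inside the range of the NECA-treated mice.

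Sarcomere genes were divided, with 16 of 27 tested members higher and a median of 0.07 (-0.05 without MI mouse 3). Myh6, the main adult myosin of the mouse heart, was 27785, 26012, 28888 and 30243 CPM against 25239, 25517 and 13681 CPM. Its log2 fold change of 0.39 ± 0.18 (SE) was 0.16 without MI mouse 3. Of the 12 tested genes of the fetal and stretch programme 9 were lower, with a median of -0.36 and of 0.04 without MI mouse 3. Rcan1, an inhibitor of calcineurin that calcineurin signalling induces, was at 37.0, 48.6, 46.1 and 46.6 CPM against 59.8, 56.0 and 92.9 CPM. It did not overlap between the groups, with a log2 fold change of -0.65 ± 0.19 (SE) and of -0.38 without MI mouse 3. Nppa was at 288, 233, 245 and 67.0 CPM against 221, 224 and 3381 CPM, so its log2 fold change of -2.62 ± 1.22 (SE) was -0.08 without MI mouse 3.

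Genes of fatty acid oxidation, the main fuel pathway of the heart, were higher in value for 27 of 30 tested, with a median of 0.17. Without MI mouse 3 the direction turned, with 20 of 30 lower and a median of -0.04. Slc25a20, the carnitine carrier of the inner mitochondrial membrane, and Cpt2, which frees the acyl group there, had log2 fold changes of 0.54 ± 0.20 and 0.46 ± 0.19 (SE), and of 0.37 and 0.22 without MI mouse 3 and 0.33 and 0.23 with the libraries summed. In both, the NECA and MI mice overlapped.

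Nuclear genes of the respiratory chain had 26 of 47 higher and a median of 0.03. Without MI mouse 3, 12 were higher and 35 lower, with a median of -0.10, and 7 had an unadjusted p under 0.05, all lower, against 2.48% of all genes. The list score was 0.07 in MI mouse 2 and -0.11 in MI mouse 1. NECA-treated mice scored -0.12, -0.26, -0.10 and 0.01, so MI mouse 1 lay inside their range and MI mouse 2 above it. Ndufb3, a subunit of complex I, was below each MI mouse, at 94.6, 82.5, 97.4 and 99.99 CPM against 106, 159 and 120.4 CPM, with a log2 fold change of -0.46 ± 0.16 (SE), and of -0.49 without MI mouse 3. The 13 mitochondrially encoded genes were divided, with 5 higher, 8 lower and a median of -0.02 (-0.15 without MI mouse 3). Among them mt-Atp6 stood at 1033, 1306, 832 and 1114 CPM against 1336, 1883 and 1421 CPM, a log2 fold change of -0.53 ± 0.17 (SE) that was -0.30 with the libraries summed, and the deep library of MI mouse 3 held 952 CPM, inside the NECA range. The complex I genes mt-Nd2 and mt-Nd5 went the other way in value, at 0.24 ± 0.17 and 0.42 ± 0.30 (SE). Hk2, the hexokinase that commits glucose to glycolysis, lay above the MI mice, at 304, 256, 302 and 289 CPM against 233, 238 and 174 CPM, with a log2 fold change of 0.42 ± 0.16 (SE). Over 26 tested genes of glycolysis and hypoxia, 16 were higher and the median was 0.06, while without MI mouse 3 10 were higher and 16 lower, with a median of -0.02.

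Ribosomal protein genes were nearly all lower in value. All 81 were tested, and 78 were lower and 3 higher with NECA, with a median log2 fold change of -0.25. At an unadjusted p under 0.05, 19 were lower and 0 higher, against 3.44% and 2.94% of all genes, and 13 lay below the MI mice without overlap, against 3.65%. In the shallow libraries, MI mouse 3 carried most of this. Its list score was 0.58, while MI mice 1 and 2 had 0.08 and 0.10, the NECA-treated mice 0.06, 0.08, -0.02 and -0.01, and the sham vehicle mice 0.01, -0.01 and 0.00. Without MI mouse 3, 55 of 81 were lower and the median was -0.04. At an unadjusted p under 0.05, 2 were then lower and 1 higher, against 2.48% and 2.63% of all genes. Rpl9, as an example, stood at 156, 146, 159.8 and 168 CPM against 214, 169 and 272 CPM, with log2 fold changes of -0.48 ± 0.16 (SE) and of -0.29 without MI mouse 3. Rpl30, Rpl9 and Rpl35, the members of smallest p, held 194, 275 and 218 CPM in the deep library of MI mouse 2. Its shallow library held 151, 169 and 137 CPM of them, and the deep library of MI mouse 3 held 191, 238 and 181 CPM. With the libraries summed their values were -0.64, -0.62 and -0.70. Ribosomal protein genes have close copies and pseudogenes among which RSEM divides reads, so single values are uncertain.

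Translation factors were lower for 22 of 29, with a median of -0.11 (-0.04 without MI mouse 3). Eef1b2, an exchange factor of elongation, had 129, 110.2, 108 and 103 CPM against 144, 132 and 166 CPM, and Eif1, which selects the start codon, had 329, 282, 343 and 319 CPM against 355, 414 and 417 CPM. Neither overlapped, and log2 fold changes without MI mouse 3 were -0.29 and -0.27. Only 4 of the 19 host genes of small nucleolar RNAs had enough counts to test. Of these, Gas5, Zfas1 and Snhg20 were lower in value, at -0.997 ± 0.21, -0.58 ± 0.34 and -0.59 ± 0.39 (SE). Messages of ribosomal proteins and of such host genes share a start of C followed by pyrimidines, through which translation is controlled. A C and at least 4 pyrimidines stood at the annotated start of 15 of 60 matched ribosomal protein genes (25%), all tested, against 3.06% of tested genes. Of the 16 matched host genes, tested or not, 3 had it (18.8%), against 3.01% of all genes with a promoter entry. Only 1 of the 4 tested host genes had it.

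**Figure D4:**
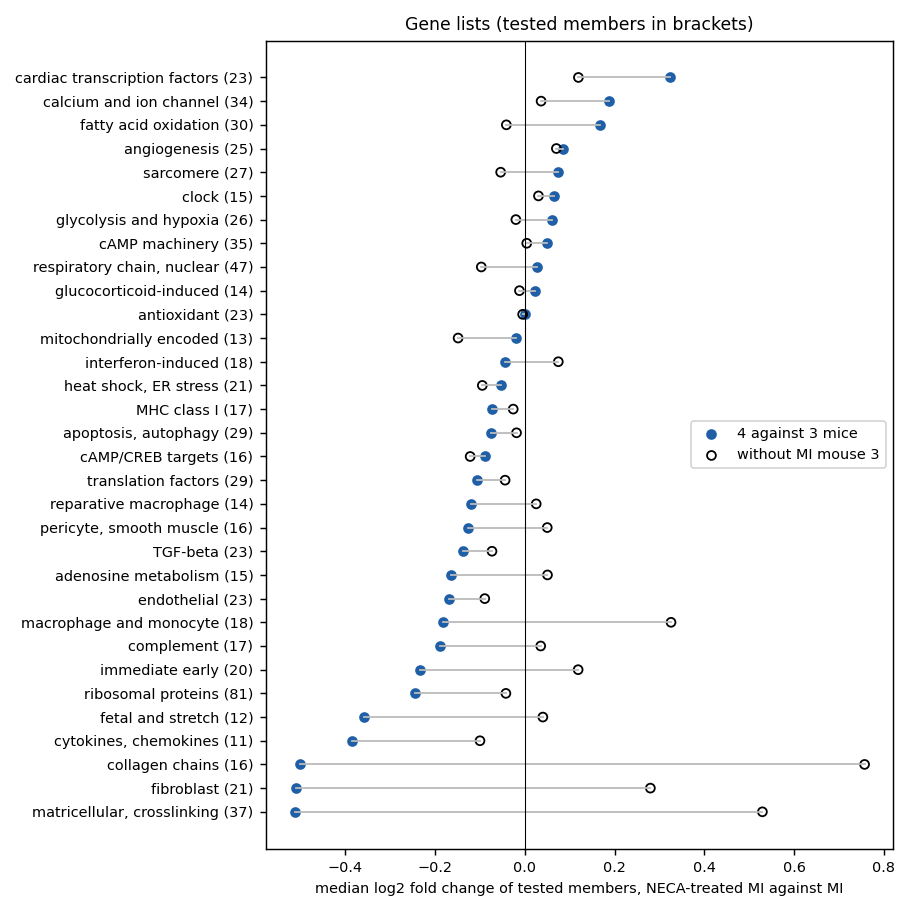
Each row is a gene list with its number of tested members, and the x axis is the median log2 fold change of those members, NECA-treated MI against MI. Filled points use 4 against 3 mice and open points leave out MI mouse 3. In many rows the open point lies across 0 from the filled one. Among these are collagen chains (-0.50 and 0.76), matricellular and crosslinking genes (-0.51 and 0.53) and fibroblast genes (-0.51 and 0.28). Macrophage genes (-0.18 and 0.33), immediate early genes (-0.23 and 0.12) and fatty acid oxidation (0.17 and -0.04) are others.

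Scar genes depended on MI mouse 3 in direction. Collagen chains were lower in value for 16 of 16 tested members, with a median of -0.50, and without that mouse 12 were higher and 4 lower, with a median of 0.76. Scores of the collagen list were 0.93, 1.65, 0.92 and 0.38 in the NECA-treated mice and 0.71, 0.28 and 2.44 in the MI mice, relative to sham vehicle mice at -0.25, -0.36 and 0.61. Col1a1 was at 304, 892, 512 and 184 CPM against 199, 126 and 1763.5 CPM, and Col3a1 at 980.3, 1608, 930.4 and 476 CPM against 751, 415 and 3889 CPM. Postn, secreted by activated fibroblasts, was at 191, 216, 183 and 55.3 CPM against 59.8, 70.3 and 1039.9 CPM. These 3 genes were chosen after their values were seen, and in each the NECA-treated mice lay inside the range of the MI mice except for NECA mouse 4 in Postn. No collagen gene had an unadjusted p under 0.05 in the 4 against 3 mice, and 2 had one without MI mouse 3, both higher, against 2.63% of all genes.

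Matricellular and crosslinking genes were the same in form, with 33 of 37 lower and a median of -0.51, and 32 of 37 higher and a median of 0.53 without MI mouse 3. In that comparison 10 of the 37 had an unadjusted p under 0.05, all higher, against 2.63% of all genes. Ccn1, a matricellular protein induced by stretch and by YAP, was 1 of the 5 lower also without that mouse, at 22.9, 23.9, 21.4 and 23.3 CPM against 35.1, 23.1 and 58.8 CPM, with log2 fold changes of -0.79 ± 0.26 (SE) and of -0.37 without MI mouse 3. Fibroblast genes were lower for 20 of 21 and had a median of -0.51, and of 0.28 without MI mouse 3. Tcf21, a factor of resting cardiac fibroblasts, lay below each MI mouse, at 4.73, 6.94, 7.69 and 5.82 CPM against 9.67, 9.89 and 14.7 CPM. Genes of TGF-beta signalling had a median of -0.14, and of -0.07 without MI mouse 3.

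**Figure D5:**
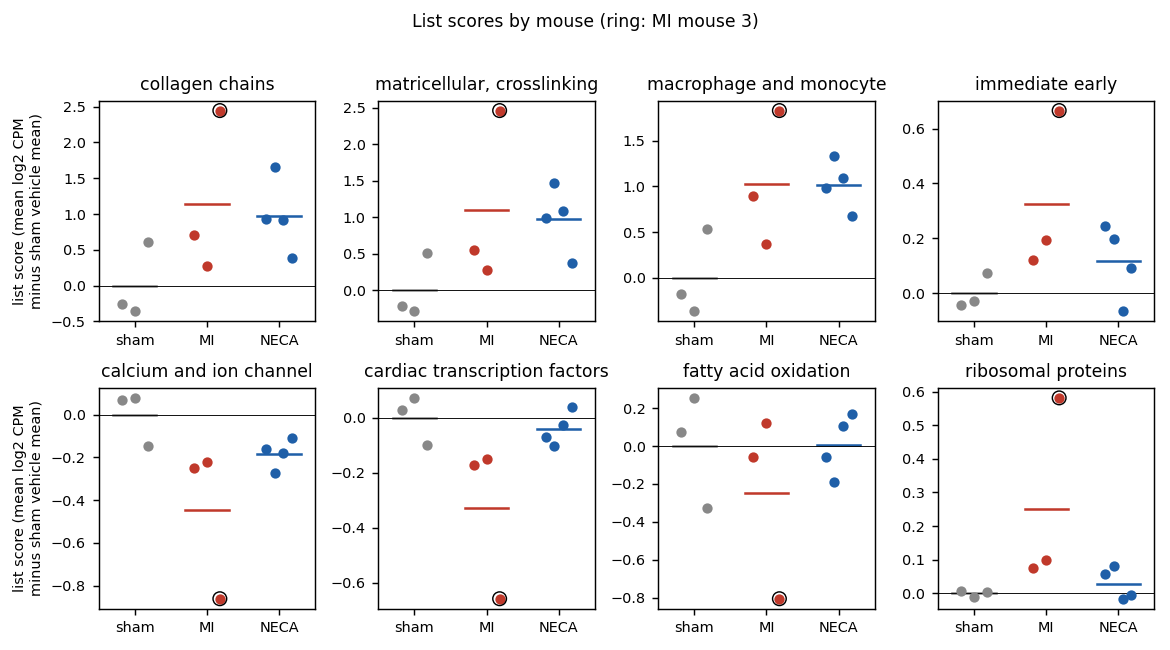
Each panel is a gene list and each point a mouse, with the mean log2 CPM of the tested members minus the sham vehicle mean on the y axis, and a line at the mean of each group (3 sham vehicle, 3 MI, 4 NECA-treated MI). The ring marks MI mouse 3, which is the highest MI point for collagen (2.44), macrophage (1.83) and ribosomal protein genes (0.58) and the lowest for ion channel (-0.86) and fatty acid oxidation genes. MI mice 1 and 2 lie within or close to the range of the NECA-treated mice in most panels.

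Macrophage and monocyte genes had 13 of 18 tested members lower and a median of -0.18, and without MI mouse 3 had 16 of 18 higher and a median of 0.33. Csf1r, the receptor for the macrophage growth factor, was at 74.1, 70.1, 75.2 and 59.2 CPM with NECA and at 47.4, 42.9 and 80.0 CPM in the MI mice. Its value was 0.28 ± 0.20 (SE), and 0.63 without MI mouse 3. Adgre1, the F4/80 antigen, had 15.0, 14.6, 12.8 and 6.80 CPM against 17.6, 12.1 and 31.3 CPM, with -0.72 ± 0.34 (SE) and -0.26. Genes of reparative macrophages had a median of -0.12, and of 0.03 without MI mouse 3.

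Cytokine and chemokine genes were mostly too low to test, with 11 of 31 tested, 9 of them lower and a median of -0.38 (-0.10 without MI mouse 3). Il1b, Il6, Tnf and Ccl2, the classical targets of adenosine in inflammatory cells, reached at most 5 counts in any of the 7 libraries, so a difference was not detectable at this depth. Icam1, the endothelial ligand of leukocyte integrins that is placed in this list, was below each MI mouse, at 14.2, 13.9, 10.3 and 12.6 CPM against 17.6, 18.7 and 22.1 CPM, with log2 fold changes of -0.61 ± 0.27 (SE) and of -0.49 without MI mouse 3. With the libraries summed its value was -0.29, and the deep library of MI mouse 2 held 10.5 CPM, close to the lowest NECA-treated mouse. None of the 15 neutrophil and mast cell markers had enough counts, and their summed level was 11.96 to 28.4 CPM with NECA against 17.6 to 31.6 CPM. Ighm, the heavy chain of immunoglobulin M, varied from mouse to mouse more than between groups, at 349, 82.5, 6.83 and 213 CPM against 733, 171 and 28.5 CPM. Class II genes were lower in value for 4 of 4 tested, with a median of -0.55, and of -0.13 without MI mouse 3. Class I antigen presentation had a median of -0.07, interferon-induced genes of -0.04 and complement genes of -0.19. Without MI mouse 3 these were -0.03, 0.07 and 0.04, so the last 2 turned in sign. Nlrc5, which switches on class I genes, lay above the MI mice at 9.46, 8.48, 9.40 and 17.5 CPM against 6.15, 6.59 and 3.68 CPM, though the deep library of MI mouse 3 held 9.31 CPM.

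Endothelial genes were lower for 16 of 23, with a median of -0.17, and of -0.09 without MI mouse 3. Vwf, the clotting factor stored in endothelium, and Egfl7, an endothelial matrix factor, moved in opposite directions in value, both without overlap. Vwf was at 86.7, 78.6, 82.0 and 86.4 CPM against 65.0, 74.7 and 47.8 CPM, and Egfl7 at 106, 119, 85.4 and 97.1 CPM against 125, 131 and 139.8 CPM. Their log2 fold changes were 0.42 ± 0.17 and -0.37 ± 0.15 (SE). Nrp1, a co-receptor of VEGF, stood at 111, 114, 106 and 113 CPM against 81.7, 101 and 72.6 CPM, at 0.38 ± 0.15 (SE), in a list of 25 tested angiogenesis genes with a median of 0.09 (0.07 without MI mouse 3). Pericyte and smooth muscle genes had a median of -0.13, and of 0.05 without MI mouse 3.

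Stress programmes showed small medians. Heat shock and endoplasmic reticulum stress genes stood at -0.05, antioxidant genes at 0.00 and genes of apoptosis and autophagy at -0.07, and at -0.09, -0.005 and -0.02 without MI mouse 3. Nfe2l2, the transcription factor NRF2, was nonetheless below each MI mouse, at 51.2, 47.0, 39.3 and 48.5 CPM against 70.3, 56.0 and 57.9 CPM, with log2 fold changes of -0.41 ± 0.17 (SE) and of -0.45 without MI mouse 3. Gabarap, which builds autophagosomes, was at 139, 140.3, 132 and 125 CPM against 154, 168 and 218 CPM, without overlap. Manf, a secreted factor of the stressed endoplasmic reticulum, had 22.1, 10.8, 19.6 and 17.5 CPM against 32.5, 21.98 and 22.99 CPM, overlapping by 1 mouse. Proliferation genes were tested for 8 of 20, with 2 higher and 6 lower, and with 4 higher and 4 lower without MI mouse 3. Stmn1, which frees tubulin from microtubules, stood at 10.2, 11.6, 7.69 and 5.82 CPM against 20.2, 16.5 and 10.1 CPM.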

How the data were processed

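The mouse was the unit of replication, with 4 NECA-treated MI, 3 MI and 3 sham vehicle mice, numbered in the labels. Per the labels' protocols, libraries of RNA 3′ ends were made by a modified CEL-Seq2 method with 9 PCR cycles. Per the submitters' processing notes, reads were handled with FastQC 0.11.9, STAR and RSEM on GRCm39. The authors deposited expected counts per gene, rounded to whole numbers, and a table of log2(TPM + 1), whose length scaling does not suit 3′ reads. Whether counting used strand, and whether molecular identifiers were collapsed, is not stated in those sources.

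Of 57054 rows, 56647 had a value in every library. Symbols came from GENCODE M21, which is another build, so no coordinates were taken from it, and promoters came from RefSeq on GRCm38.p6. Counts of the 7 libraries were filtered with filterByExpr, scaled with TMM and tested with edgeR 4.0.16 (R 4.3.3), robust quasi-likelihood, two-sided, with adjusted p under 0.05 as the threshold. DESeq2 1.42.0, limma 3.58.1 on log2(TPM + 1), other scalings and filters, summed libraries, a replicate block and leaving out each mouse were alternatives. The test was checked on simulated counts.

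Named genes were (a) the 8 of smallest p in each direction with at least 10 CPM in a group, an established symbol and no overlap, (b) the 4 of largest fold change in each direction among such genes with an unadjusted p under 0.05, (c) all adenosine receptor and metabolism genes, (d) up to 3 members of smallest p in each list and (e) markers of other tissues. Others named were chosen after their values were seen, as defining members of their list. The members and the 45 lists (960 symbols, 10 unmatched) were chosen with earlier results of these data known. Lists are described by counts and medians over tested members (40 lists had at least 3), and list scores use a prior count of 2. Same-numbered NECA-treated and MI mice did not deviate together (correlations of 0.03, -0.24 and 0.02, against -0.25 to 0.23 for unlike numbers). So few values cannot exclude a pairing by number, and the main fit used none. With 4 against 3 mice an exact permutation test of a single value cannot go below p = 0.0571. A few genes that this rule names are not reported here.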

Additional observations from a re-analysis of the deposited data

Results flagged for a closer look

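In 3 of 62 results checked, 1 NECA-treated mouse lay far from the other 3, by the ratio of its gap to the range of the group, and chance gives such a gap in about 1 group in 20. NECA mouse 3 had 38.4 CPM of Htt, against 29.3 to 30.1 CPM in the others. The same mouse had 50.4 CPM of Endog, against 38.5 to 40.2 CPM. The list score of red cell markers was -1.41 in NECA mouse 2, against -1.07 to -1.04 in the others.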

How the results depend on the processing

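The count of 0 genes in each direction held in edgeR with other scalings, without mitochondrially encoded genes, with at least 10 CPM, with sham vehicle libraries in the fit, in DESeq2 and in limma. With no filter on low counts (19335 genes), 1 gene was higher (Fam177a) and 3 lower (Gas5, Gm20458 and Gm49378), with an adjusted p of 0.00753 for Gas5, whose adjusted p ranged up to 0.9997 over the alternatives. With first and second libraries summed, 1 was higher (Pm20d2, 2.61 ± 0.39 (SE), adjusted p = 0.0429 in edgeR), in a fit that mixes depths. Leaving out each mouse gave 0 to 1 higher and 0 to 1 lower, the calls coming without MI mouse 1 (Fam177a at 7.72 and 1700047I17Rik2 at -7.96). At an unadjusted p under 0.05, leaving out each mouse gave 174 to 445 higher and 218 to 463 lower. The higher count was 439 and 445 without MI mouse 1 and MI mouse 2, and 178 and 174 without NECA mouse 3 and NECA mouse 4. Counts there were 510 and 526 with no filter, 443 and 502 with summed libraries and 98 and 129 in DESeq2. Of the 22 leading genes, Fam177a reversed, to -0.027 with the libraries summed, and the cause was not tested. The other 21 kept their sign in every alternative that tested them. They were chosen for no overlap between the groups, so leaving out 1 mouse could hardly turn a sign, and this is no separate support. Beside the lists that changed sign without MI mouse 3, the median of macrophage genes was 0.03 in limma, that of cAMP machinery -0.01 in limma, and those of glucocorticoid-induced and antioxidant genes changed sign with the scaling. Medians of other lists also turned in some alternatives. Among them, mitochondrially encoded genes kept the main sign in 11 of 17, heat shock and endoplasmic reticulum stress genes in 15 of 18 and angiogenesis genes in 16 of 18. A replicate block over mice 1 to 3 gave 0 calls, with 128 higher and 159 lower at an unadjusted p under 0.05, against 174 and 224 in the same 6 mice without it. Whether the numbers pair the mice is not known. At this depth 11 of 31 cytokine genes, 0 of 15 neutrophil and mast cell genes and 1 of the 4 adenosine receptors were tested, and Adora2a also was with sham vehicle libraries in the fit (0.22) and with the libraries summed (-0.18).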
